A study of Sus scrofa with 28 samples.

Results

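Within each of 6 pigs, the left median lobe was compared with the left caudal lobe. These were the pigs that had inhaled sulfur mustard and had an array from both lobes, which gave 12 of the 28 arrays in the series and 6 of its 10 animals, and each animal contributed 1 difference, the median lobe minus the caudal lobe. The arrays were chosen by their labels for exposure and lobe, not by any measured value. Animals 34, 41 and 42 had received the medium dose of 100 µg/kg, and animals 31, 32 and 33 the low dose of 60 µg/kg.

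All animals were female swine, premedicated, anesthetized, intubated and lying supine, and the exposed ones inhaled sulfur mustard (HD) vapor for 10 min. The tissue was collected 12 h after exposure. Animals 28, 29 and 44, which were exposed to air, also had both lobes and served to compare lobe differences between exposed and air animals. Total RNA from lung tissue was hybridised to the Affymetrix porcine array, and each lobe of an animal was represented by 1 array. In such whole tissue, fewer cells of a type and less RNA per cell cannot be told apart.

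Sulfur mustard is an alkylating blister agent that damages DNA and proteins, and its vapor injures the lining of the airways. Injured airway is known to release chemokines that attract leukocytes, to switch on immediate early transcription factors and to expose tissue factor, the starter of clotting. Lobes of the same lung also differ in position and in their mix of airway and alveolar tissue. The comparison asks whether the median lobe differed from the caudal lobe in the same exposed animal, at either dose, and whether such a difference differed from that in air animals.

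All 12 arrays carried the marker genes of distal lung. SFTPC, the surfactant protein C of alveolar type 2 cells, lay between 2703 and 3177 normalised signal units, and the endothelial adhesion gene PECAM1 between 1466 and 1921. The heart genes MYL2 and TNNT2 reached no more than 20.3 and 3.67 units. Other striated and heart muscle markers were brighter, with CKM between 41.3 and 92.5 units and NPPB up to 148. Over all 28 arrays, pairwise correlations of log2 signal lay between 0.951 and 0.992.

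No gene passed the test in the exposed animals. Of 23999 probe sets, 0 were called (0%) at an adjusted p below 0.05 by limma, and the smallest adjusted p was 0.307. Unadjusted p lay below 0.05 for 2155 probe sets (8.98%), of which 1016 (4.23%) were higher and 1139 (4.75%) lower in the median lobe. The differences were small: their median size was 0.07 on the log2 scale, 64 probe sets exceeded 0.5 in either direction and 1 exceeded 1. The 95% interval of a difference reached 0.18 to either side at the median over probe sets. This width rests on a spread that limma estimated from the 9 animals with both lobes, the air animals included.

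Differences below were taken on log2(signal + 16), which understates the change of dim genes. Standard errors come from limma with the same shared spread, and n counts the animals in a mean. Each gene stands for its brightest probe set. The 12 genes with the smallest p had adjusted p-values between 0.307 and 0.382 by limma, so they are given as values that did not pass. 9 of them lay lower and 3 lay higher in the median lobe, and 10 had the same sign in 6 of 6 animals. Over all 6765 genes, 129 (1.91%) lay above 0 and 181 (2.68%) below 0 in all 6 animals. The 12 genes were chosen by p on these same differences, which favours a shared sign, so their signs add no evidence.

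ADGRG1, an adhesion G protein-coupled receptor, had the smallest p. Its signal in the median lobe ran from 50.5 to 128 with a middle value of 97.5, against 87.3 to 166 with a middle value of 126 in the caudal lobe. The lobes overlapped as groups, but the median lobe was the lower in 6 of 6 animals. The difference was -0.70, -0.64 and -0.69 in medium animals 34, 41 and 42, and -0.39, -0.30 and -0.12 in low animals 31, 32 and 33. Its mean was -0.47 ± 0.07 (SE, n = 6).

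MRAP encodes an accessory protein that the corticotropin receptor needs to reach the cell surface. Its signal spanned 4.63 to 93.5 in the median lobe, with a middle value of 33.2, against 13.3 to 134 in the caudal lobe, with a middle value of 61.1. Animals differed far more than the lobes did, and the median lobe was the lower in 6 of 6 of them. The difference was -0.56, -0.45 and -0.47 in the medium animals and -1.01, -0.50 and -0.75 in the low animals, with a mean of -0.62 ± 0.09 (SE, n = 6).

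RTN1, a reticulon of the endoplasmic reticulum, had 102 to 281 units in the median lobe with a middle value of 139, against 140 to 358 in the caudal lobe with a middle value of 275. It was lower in the median lobe of 6 of 6 animals, most so in medium animals 34 (-1.09) and 42 (-0.94) and low animal 33 (-0.98). Low animal 32 showed the smallest gap, -0.15. The mean was -0.71 ± 0.11 (SE, n = 6).

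HSH2D, an adaptor protein of blood cells, had its larger differences in the medium animals. Its signal was 18.6 to 42.9 in the median lobe with a middle value of 34.1, against 41.7 to 66.4 in the caudal lobe with a middle value of 49.8. The groups overlapped only slightly, and the 3 highest values were the medium caudal lobes. The difference was -0.62, -1.01 and -0.71 in the medium animals, against -0.07, -0.14 and -0.31 in the low animals, with a mean of -0.48 ± 0.08 (SE, n = 6). The medium minus low gap of -0.60 did not pass (limma adjusted p = 0.415).

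SPP1 encodes osteopontin, a secreted phosphoprotein made in quantity by some macrophages, and was the brightest of the 3 that lay higher. The median lobe held 426 to 669 units with a middle value of 610, against 285 to 521 in the caudal lobe with a middle value of 388. The median lobe was the higher in 6 of 6 animals. The difference was about 1 in medium animals 34 (1.01) and 41 (0.96), and 0.27 in animal 42. The low animals had 0.38, 0.43 and 0.22, and the mean over the 6 animals was 0.54 ± 0.10 (SE).

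The other genes of this group were dimmer or differed less. ETNK2, an ethanolamine kinase of phospholipid synthesis, had the widest mean difference of any gene, -0.84 ± 0.17 (SE, n = 6), but it ran from -1.62 in medium animal 34 to -0.01 in low animal 31, and a second, near-dark probe set gave 0.03. RAMP3, a partner of the adrenomedullin receptor, averaged -0.36 ± 0.07, and COL15A1, a basement membrane collagen, -0.30 ± 0.06 (SE, n = 6 each). SPOCK3, a matrix proteoglycan, averaged -0.26 ± 0.05, and LGALS9, the sugar-binding galectin 9, -0.40 ± 0.08 (SE, n = 6 each). A second probe set of SPOCK3, with a mean signal of 57.7, gave -0.04. On the higher side, ITIH2, a heavy chain that binds hyaluronan in the matrix, averaged 0.41 ± 0.08, and ASRGL1, an asparaginase, 0.27 ± 0.05 (SE, n = 6 each). A second probe set of ASRGL1, with a mean signal of 158, gave -0.02.

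**Figure D1:**
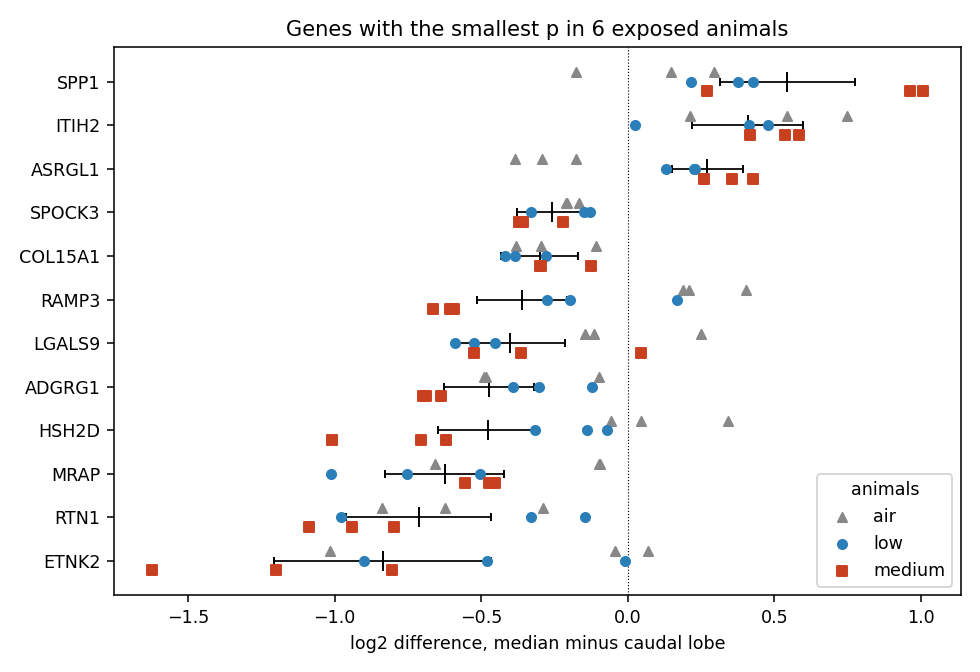
Lobe difference (log2, median minus caudal lobe, x axis) of the 12 genes with the smallest p, with 1 point for each animal, coloured by exposure group, and the mean of the 6 exposed animals with its 95% interval from limma (black). Apart from LGALS9 in 1 medium animal and RAMP3 in 1 low animal, all exposed animals lay on 1 side of 0 for each gene.

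**Figure D2:**
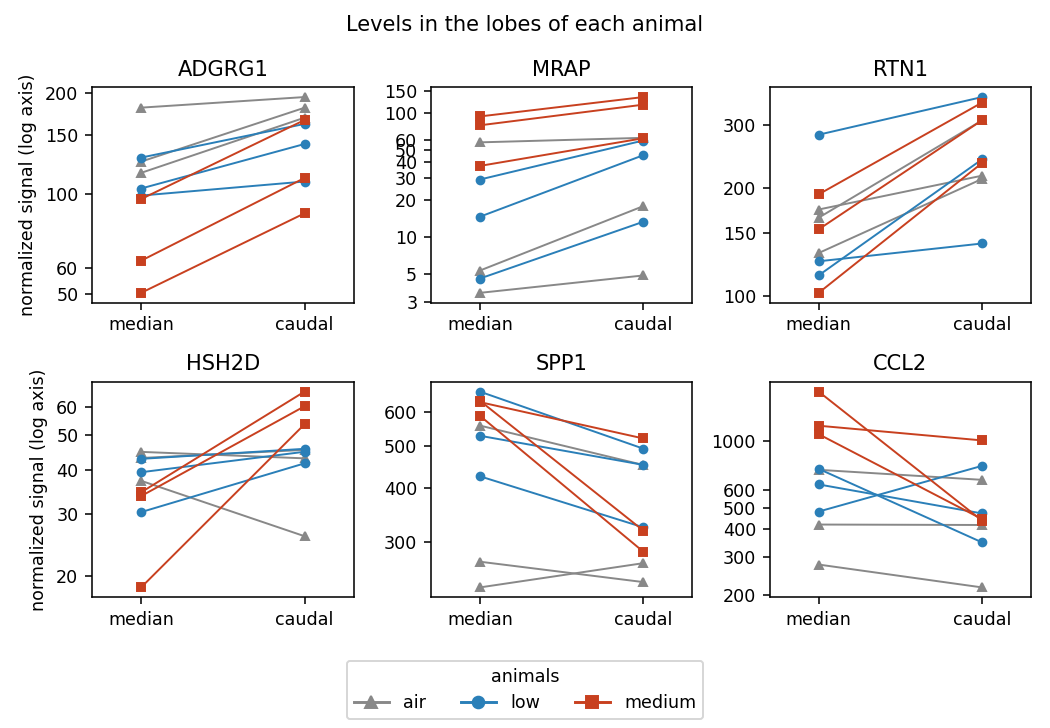
Normalised signal (log axis) of 6 genes in the median lobe (left) and the caudal lobe (right) of each animal, with a line joining the lobes of 1 animal. The lines of ADGRG1, MRAP, RTN1 and HSH2D run upward to the caudal lobe and those of SPP1 downward in all 6 exposed animals, while the CCL2 line of low animal 32 runs against the other exposed animals.

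Few genes lay higher in the median lobe without regard to the pairing. RBM17, a splicing factor, and NTN1, the guidance cue netrin 1, were higher in every exposed median lobe than in any exposed caudal lobe (2 of 6765 genes, 0.0296%). The differences were 0.17 for RBM17 and 0.25 for NTN1, which had a mean signal of only 3.14. Both genes were picked out after their values were seen.

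Markers of airway epithelium tended to lie above 0, but none of them passed the test. All 5 measured ciliated cell markers had a mean above 0, with a median of 0.18 over the list, against -0.001 over all 6765 genes, of which 3351 lay above 0. TUBB4B, a tubulin of the ciliary axoneme, was higher in the median lobe of 6 of 6 animals and averaged 0.33 ± 0.12 (SE, limma adjusted p = 0.475). TEKT1, a tektin of cilia, averaged 0.24 ± 0.11 (SE, n = 6) and was above 0 in 5 of 6. By animal, the ciliated list median lay between -0.04 and 0.36, and it was below 0 in medium animal 42 and low animal 33. The air animals also lay above 0, with a ciliated list median of 0.33, TUBB4B at 0.70 and TEKT1 at 0.39.

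Of 8 airway secretory markers, 6 lay above 0 with a list median of 0.16. CLDN4, a claudin of tight junctions, was higher in the median lobe of 6 of 6 animals, with 238 to 328 units in the median lobe against 140 to 286 in the caudal lobe. Its difference of 1.14 in medium animal 41 stood apart from 0.35 and 0.40 in the other medium animals and from 0.08, 0.16 and 0.13 in the low animals. The mean was 0.38 ± 0.10 (SE, limma adjusted p = 0.398). TFF3, a trefoil peptide of mucous cells, averaged 0.30 ± 0.13 (SE, n = 6) and was above 0 in 5 of 6 animals. The secretory list median by animal was above 0 in 4 of 6 exposed animals. In the air animals this list had a median of 0.33, with CLDN4 at 0.495 and TFF3 at 0.49.

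The alveolar lists were centred near 0. The 7 type 2 cell markers had a median of 0.03 and the 6 type 1 cell markers one of -0.001. SFTPC differed by -0.05 ± 0.05 (SE, n = 6), and each of the 6 animals was within 0.11 of 0. ETV5, a transcription factor of type 2 cells, averaged -0.30 ± 0.12, and AQP5, a water channel of type 1 cells, 0.15 ± 0.08 (SE, n = 6 each).

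Endothelial markers were evenly split, with 7 of 15 above 0 and a median of -0.01. VCAM1, an adhesion molecule that captures leukocytes, averaged 0.31 ± 0.13 (SE, n = 6). EDN1, the vasoconstrictor endothelin 1, averaged -0.43 ± 0.14 (SE, n = 6) and was above 0 only in low animal 32. Of 14 fibroblast and matrix genes, 10 lay above 0 with a median of 0.06, and the list's median by animal was above 0 in 6 of 6. None of them passed the test. COL1A2, a chain of type I collagen, led them with 0.59 ± 0.16 (SE, n = 6), with -0.45 to 0.43 in the medium animals and 0.80 to 1.54 in the low animals. The medium minus low gap was thus -1.01 for this probe set, whereas a second, dimmer probe set of COL1A2 averaged 0.25 over the 6 animals and had a gap of 0.74, in the opposite direction.

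Leukocyte markers showed no common direction. Of 6 neutrophil markers, 4 lay below 0 with a median of -0.10, and S100A8, a calcium-binding protein of neutrophils, averaged -0.29 ± 0.09 (SE, n = 6). In the macrophage list, 9 of 13 genes lay below 0. VSIG4, a complement receptor of resident macrophages, averaged -0.25 ± 0.07, in contrast to SPP1 in the same list. KIT, the stem cell factor receptor of mast cells, averaged 0.53 ± 0.15, but GATA2, a transcription factor of the same cells, averaged -0.23 ± 0.09 (SE, n = 6 each). The median lobe minus caudal lobe difference of KIT was -0.05, 0.17 and 0.40 in the medium animals and 0.87, 0.54 and 1.27 in the low animals. In the air animals KIT averaged 0.83 and GATA2 -0.02.

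The joint list of MHC class II genes, which present antigen to helper T cells, and dendritic cell genes lay slightly above 0. Of 15 genes in this mixed list, 11 lay above 0 with a median of 0.06. Its largest mean, 0.35, was that of CD1.1, which is not an MHC class II gene. In the list, 4 genes lay above 0 in 6 of 6 animals. These were SLA-DRA, SLA-DRB1, SLA-DQA1 and SLA-DQB1, listed here after their values were seen, at 0.15, 0.19, 0.05 and 0.05. The T and NK cell list had a median of -0.02 and the B and plasma cell list one of -0.04.

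The lobe differences of injury and stress genes varied widely between animals. CCL2, the chemokine that recruits monocytes, had the widest mean of the cytokine list, with 481 to 1684 units in the median lobe and a middle value of 915, against 348 to 1011 in the caudal lobe and a middle value of 458. Its difference was 0.22, 1.91 and 1.25 in medium animals 34, 41 and 42, and 1.08, -0.67 and 0.43 in low animals 31, 32 and 33. The mean of 0.70 ± 0.24 did not pass (SE, limma adjusted p = 0.450).

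IL6, an inducer of the acute phase, rested on a single array. Medium animal 41 had 124 units in the median lobe, and the other 5 median lobes had 13.5 to 33.3, against 18.2 to 26.6 in the 6 caudal lobes. The difference of animal 41 was 1.71, and the other 5 lay between -0.38 and 0.47. The mean was 0.37 ± 0.18 (SE, n = 6). Without animal 41 it was 0.14, as the mean of the 2 dose means, which gives each dose equal weight.

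CXCL8, the neutrophil chemokine interleukin 8, pointed either way. It differed by 0.12, 0.74 and -0.26 in the medium animals and by -0.48, -0.63 and 0.29 in the low animals, with a mean of -0.03 ± 0.14 (SE, n = 6). The sign of that mean turned when animal 31, 32 or 42 was left out. F3, tissue factor, differed by -0.09, 0.69 and 0.69 in the medium animals and by 0.17, -0.39 and -0.57 in the low animals. Its mean was 0.09 ± 0.12 (SE, n = 6), against 0.40 in the air animals.

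The early response genes ATF3 and MYC, both transcription factors, lay above 0 on average, at 0.50 ± 0.14 and 0.28 ± 0.09 (SE, n = 6 each), and FOS, a subunit of AP-1, at 0.14 ± 0.17. ATF3 had 201 and 188 units in the median lobes of medium animals 41 and 42, while the other 4 median lobes held 96.4 to 98.8 and the 6 caudal lobes 52.0 to 102. Of 18 immediate early genes, 10 lay above 0. The list median was 0.03, 0.30 and 0.32 in medium animals 34, 41 and 42, against 0.08, -0.07 and -0.12 in the low animals. For the EGF receptor ligand and wound list, these medians were 0.003, 0.37 and 0.13 in the medium animals, against 0.12, -0.27 and -0.23 in the low animals.

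In animal 41, all 8 of CCL2, IL6, CXCL8, F3, FOS, ATF3, MYC and the EGF receptor ligand AREG were higher in the median lobe, by 0.66 to 1.91. These 8 were picked from their lists with values of these data known, and AREG was dim, with a mean signal of 11.2. Members left out included TGFA, at -0.32 in animal 41, and IL10, at -0.07. In animal 42, 7 of the 8 were higher, and in low animal 32, 6 of the 8 were lower. The exposed animals spanned the air values for 6 of these genes; the exceptions were FOS, with 1.08 in air animal 29 and -0.52 in air animal 44, and MYC, with -0.05 and -0.19 in the same animals. The RNA integrity index averages, for beta-actin and GAPDH, how far the 3′ control probe set lies above the 5′ one in log2, and is higher where 5′ signal is relatively weaker. It was 0.29 higher in the median lobe in animal 41 and 0.54 lower in animal 32, and its part in these values was not tested.

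**Figure D3:**
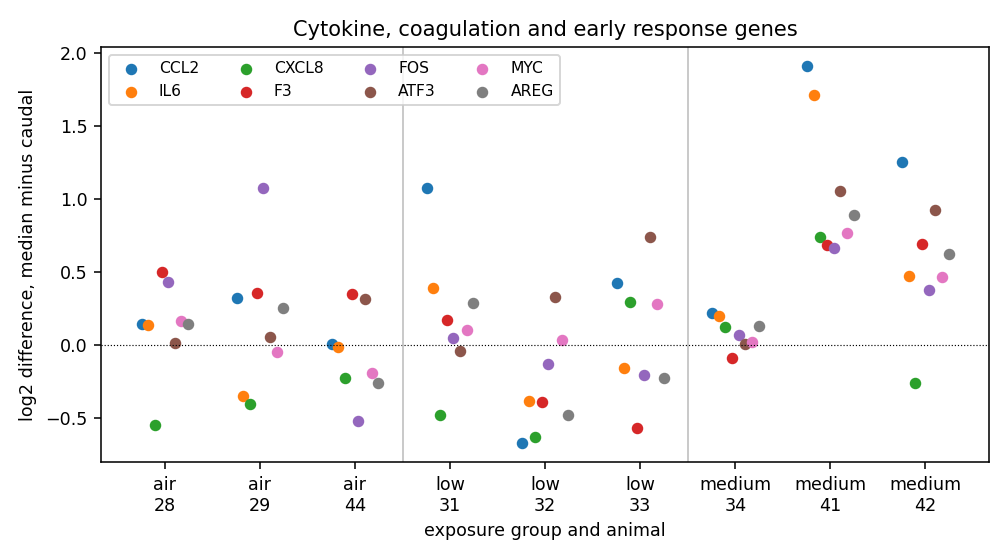
Lobe difference (log2, median minus caudal lobe, y axis) of 8 cytokine, coagulation and early response genes in each animal, ordered from air to the low and the medium dose. All 8 points lie above 0 in medium animal 41, and most lie below 0 in low animal 32. The 8 genes were picked with values of these data known.

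The other response lists stayed near 0. Of 21 p53 target and DNA damage genes, 9 lay above 0 with a median of -0.01. CDKN1A, the cell cycle inhibitor p21, averaged -0.13 ± 0.07, and GADD45G, a stress sensor of the GADD45 family, 0.32 ± 0.08 (SE, n = 6 each). GADD45G was higher in the median lobe of 6 of 6 animals, with a limma adjusted p of 0.382.

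Of 21 NRF2 target and oxidative stress genes, 12 lay above 0. HMOX1, which degrades heme, averaged -0.23 ± 0.09 (SE, n = 6), with -0.71, -0.21 and -0.36 in the medium animals and -0.35, 0.03 and 0.25 in the low animals. MT1A, a metal-binding metallothionein, averaged 0.53 ± 0.18 (SE, n = 6), with 1.35 and 1.02 in medium animals 41 and 42. Its signal was dim, with a mean of 12.3.

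Of 16 genes of the unfolded protein response, which enlarges the folding capacity of the endoplasmic reticulum, 15 lay above 0, with a small median of 0.07. The list's median by animal was above 0 in 4 of 6. CALR, the chaperone calreticulin, averaged 0.20 ± 0.08 (SE, n = 6), with -0.21, -0.24 and 0.03 in the medium animals against 0.64, 0.56 and 0.47 in the low animals. SGK1, a kinase induced by glucocorticoids, averaged -0.49 ± 0.16, and CYP2B22, a cytochrome P450 of foreign compound metabolism, -0.63 ± 0.19 (SE, n = 6 each). In the air animals SGK1 averaged -0.74 and CYP2B22 -0.06. CYP2B22 rested most on low animal 31, at -1.67, and it was level in medium animal 34.

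The 59 cytosolic ribosomal protein genes, a steady part of the table, had a median of -0.005, and their list medians by animal stayed between -0.01 and 0.02. The 31 oxidative phosphorylation genes had a median of 0.01.

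At each dose alone, no probe set passed the test. In the 3 medium animals 0 were called (0%), with a smallest adjusted p of 0.270 by limma and 1860 probe sets (7.75%) below an unadjusted 0.05. In the 3 low animals 0 were called (0%), with a smallest adjusted p of 0.162 and 2295 probe sets (9.56%) below an unadjusted 0.05. Across the 6765 genes, the mean difference of the medium animals correlated with that of the low animals at r = 0.05. Between single animals across probe sets, r lay between -0.004 and 0.155 for pairs of medium animals, between 0.142 and 0.207 for pairs of low animals and between -0.094 and 0.075 for mixed pairs. These correlations are across genes that share arrays and normalization, and are given as a description.

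The lobe difference of the medium animals minus that of the low animals also gave 0 calls (0%) by limma, with a smallest adjusted p of 0.087, and 2055 probe sets (8.56%) below an unadjusted 0.05. Of the 6765 genes, 98 (1.45%) lay above 0 in 3 of 3 medium animals and below 0 in 3 of 3 low animals, and 131 (1.94%) lay the other way round.

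The 6 genes with the smallest p in this comparison had limma adjusted p-values of 0.321 to 0.396. EP400, a chromatin remodelling protein, had 148, 120 and 125 units in the median lobe of medium animals 34, 41 and 42, against 50.9, 75.2 and 73.1 in their caudal lobes. In low animals 31, 32 and 33 the order was reversed, with 50.4, 63.9 and 58.4 in the median lobe against 92.2, 94.8 and 76.0 in the caudal lobe. The lobe difference was 1.34 ± 0.24 (SE) higher in the medium than in the low animals. A second, dimmer probe set of EP400 gave -0.26.

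PRKAR2A, a regulatory subunit of protein kinase A, ran the other way. It had 48.4, 38.4 and 67.6 units in the median lobe of the medium animals, against 54.5, 49.1 and 82.4 in their caudal lobes. The low animals had 77.6, 62.7 and 74.1 in the median lobe against 34.7, 22.8 and 39.2 in the caudal lobe. The lobe difference was -1.08 ± 0.20 (SE) in the medium relative to the low animals, and the low animals supplied most of it.

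ZC3H13, of the complex that methylates adenosine in RNA, gave 0.84 ± 0.16, and CTR9, of the PAF1 transcription elongation complex, gave 0.64 ± 0.13. A second probe set of CTR9 gave 0.55. The calcium sensor VSNL1 gave 0.66 ± 0.13, and BSP1, of a family of proteins that bind sperm, -0.74 ± 0.11 (SE, n = 3 and 3 each). Both were dim, and BSP1 never exceeded 17.5 units.

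**Figure D4:**
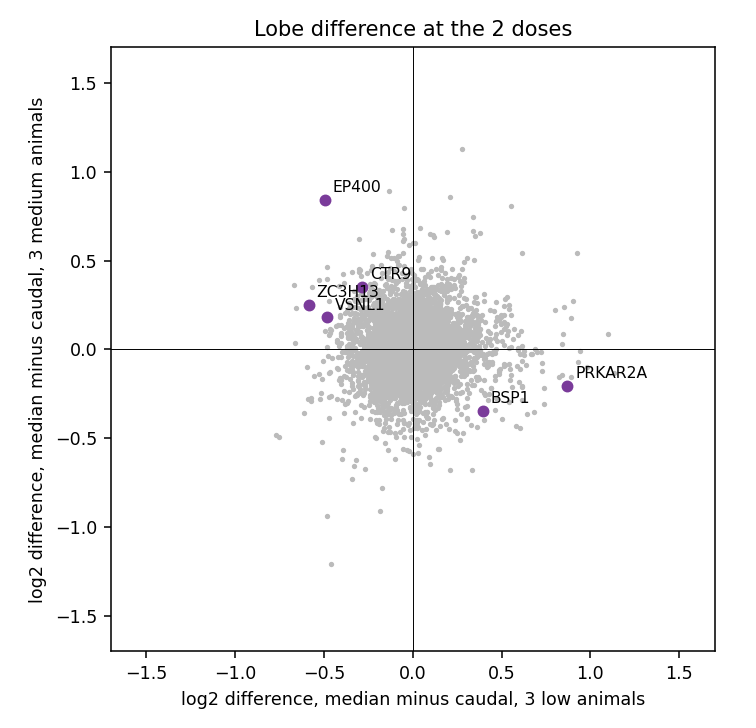
Lobe difference (log2, median minus caudal lobe) of 6765 genes, with the mean of the 3 low animals on the x axis and of the 3 medium animals on the y axis. Each grey point is a gene, and the 6 named purple points are those with the smallest p for the difference between doses. Across genes the means of the doses correlated at r = 0.05, and the named genes lie in the quadrants where the doses have opposite signs.

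Some control signals on the arrays moved with this split between doses. The 18S ribosomal RNA control probe set lay lower in the median lobe of the medium animals, by -0.39, -0.93 and -0.24 on the log2 scale, and higher in that of the low animals, by 0.44, 1.67 and 0.23. The gap between doses was -1.30, and an exact two-sided permutation test gave p = 0.1, the smallest that 3 against 3 animals allow. The RNA integrity index differed between lobes by 0.08, 0.29 and -0.13 in the medium animals, against -0.16, -0.54 and -0.14 in the low animals. The gap between doses was 0.36 (exact permutation p = 0.1, n = 3 and 3). It was 0.53 for the GAPDH part (exact permutation p = 0.1) and 0.19 for the actin part (exact permutation p = 0.4). The 28S control did not split by sign, with 0.04, -1.12 and 0.11 in the medium animals against 0.41, 2.16 and 0.38 in the low animals.

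With the index difference as a covariate in the fit, chosen after the data were seen, the smallest adjusted p of the dose comparison was 0.989 by limma. EP400 then gave 1.19, PRKAR2A -0.88 and CTR9 0.71. Every medium animal had a higher index difference than every low animal, so this fit could not cleanly separate the index from the dose. The part of these control signals in the difference between doses was not tested. Over the 6 exposed animals together, 18S averaged 0.13 ± 0.90 (SD, exact sign-flip p = 0.75) and the index -0.10 ± 0.27 (SD, exact sign-flip p = 0.469).

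**Figure D5:**
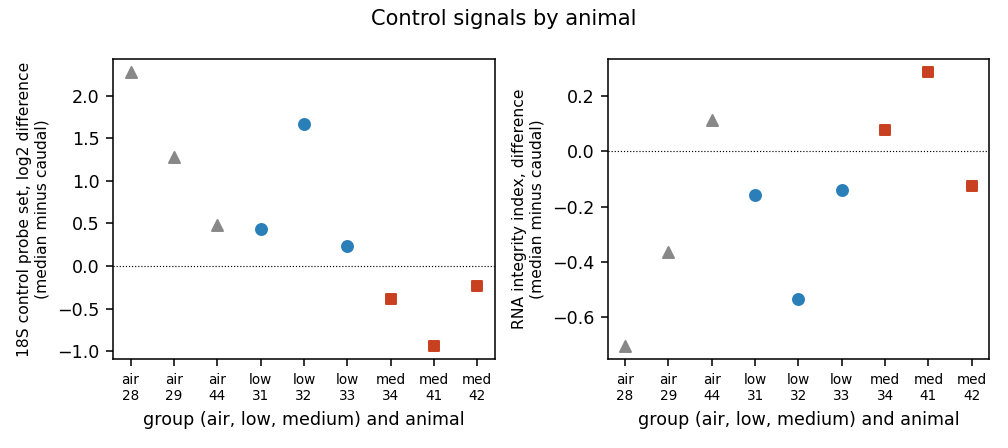
Lobe difference (median minus caudal lobe) of the 18S control probe set (left, log2) and of the RNA integrity index (right) in each animal, ordered from air to the low and the medium dose. The 18S points of the 3 medium animals lie below 0, and those of all air and low animals lie above 0.

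The lobe difference of the 6 exposed animals minus that of the 3 air animals gave 0 calls (0%) by limma, with a smallest adjusted p of 0.289, and 1080 probe sets (4.5%) below an unadjusted 0.05. CTR9 had the smallest p. Its lobe difference was between -0.52 and 0.44 in the exposed animals, against -0.74, -0.77 and -0.86 in air animals 28, 29 and 44, a gap of 0.82 ± 0.11 (SE). CTR9 was picked by its p in this same comparison, and its second probe set gave 0.26.

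ASRGL1 lay between 0.13 and 0.43 in the exposed animals, against -0.38, -0.18 and -0.29 in the air animals, a gap of 0.56 ± 0.09 (SE). Its second probe set gave -0.13. RAMP3 lay between -0.66 and 0.17 in the exposed animals, against 0.19, 0.40 and 0.21 in the air animals, a gap of -0.63 ± 0.12 (SE). The other genes by smallest p were SPECC1L, a cytoskeletal linker, at 0.76 ± 0.13, CHGA, chromogranin A of neuroendocrine cells, at 0.55 ± 0.11, and FBXO34, an F-box protein, at 0.71 ± 0.15 (SE). Limma's adjusted p-values of these 5 genes ran from 0.451 to 0.611. Of them, CHGA and RAMP3 were dim, with mean signals of 7.5 and 15.9.

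Several of the genes that led the comparison of lobes after exposure had the same sign in air. ADGRG1, MRAP, RTN1, COL15A1 and SPOCK3 lay below 0 and ITIH2 above 0 in 3 of 3 air animals. RTN1, for example, differed by -0.71 in the exposed animals against -0.29, -0.84 and -0.62 in the air animals. HSH2D averaged -0.48 in the exposed and 0.11 in the air animals, a gap of -0.59 ± 0.13 with a limma adjusted p of 0.619. The 18S control lay higher in the median lobe of all 3 air animals, by 2.27, 1.29 and 0.48, against a mean of 0.13 in the exposed animals, and its part in the values of CTR9 and the other genes was not tested.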

How the data were processed

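The authors deposited 1 signal intensity per probe set and array on a linear scale, scaled so that the trimmed mean is equal on every array; per the labels' protocols, RNA was isolated with RNeasy and labelled with biotin. The summarization software is not given in the sources used here. The values of 28 arrays were used as log2(signal + 16) and quantile normalised, and 124 control probe sets with names beginning with AFFX were left out. Reporter control probe sets, with names beginning with RPTR, stayed among the 23999 tested. The annotation gave 1 symbol for 10069 of 23999 probe sets, several for 198 and did not list 13732; these covered 6765 genes. Each animal's median minus caudal difference was fitted with limma 3.58.1 in R 4.3.3 on the 9 animals with both lobes, which share 1 estimate of spread (6 residual degrees of freedom), and p-values were Benjamini-Hochberg adjusted over all probe sets. Same-animal lobes deviated together (r = 0.154 to 0.573), and the pairing comes from the animal numbers in the labels. The scripts were tested on simulated data. Figures used Python 3.11.15. Named genes were the 12 with the smallest p for exposed animals, the 6 for each dose or air comparison, 1 or 2 members of each of 44 lists and 7 genes whatever their p. Members and lists were chosen with earlier results of these data known. One gene whose lobes did not overlap is not reported here.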

Additional observations from a re-analysis of the deposited data

Results flagged for a closer look

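Among 153 sets of 6 exposed animals checked for 1 animal standing apart, 3 had one, and chance gives about 1 in 20. These were ITIH2 in animal 31, whose difference of 0.023 lay below the others, LGALS9 in animal 42, whose 0.046 was its only value above 0, and CLDN4 in animal 41, at 1.14.

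Some measures had 1 sign in all medium animals and the other in all low animals, and are given as medium minus low. They were EP400 (1.34), PRKAR2A (-1.08), BSP1 (-0.74), VSNL1 (0.66), AQP5 (0.65), CTR9 (0.64) and the 18S control (-1.30). None of the genes passed limma's test of that difference. ASRGL1 (0.56) and NDUFB3 (0.33), a subunit of respiratory complex I, had 1 sign in all exposed and the other in all air animals. These values are exposed minus air, and neither gene passed limma's test. The share of all genes with such a split is not given here. A second probe set of NDUFB3 gave 0.05.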

How the results depend on the processing

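The exposed animals gave 0 calls under the alternatives tried, apart from a random animal effect over all arrays (consensus correlation 0.351), which gave 4. That setting gave 2 calls for the low animals and 4 for medium minus low. Medium minus low gave 1 call with median-centred arrays and 1 with the deposited scaling. With no replicate block, in an unpaired fit, 0 probe sets were called in each comparison. Leaving out 1 animal gave 0 to 13 calls for the low animals, 0 to 1 for medium minus low (1 without air animal 29 or 44) and 0 for the others. The 13 came without air animal 44, which shares the estimate of spread; PRKAR2A (0.87) and the adaptor YWHAZ (0.93), named after their values were seen, were among them, all higher in the median lobe. The cause was not tested.

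Signs turned for CXCL8 with the deposited scaling (0.012), and signs turned in the fits that left out 1 animal. There, as means that give each dose equal weight, CXCL8 ran from -0.17 to 0.082, F3 from -0.023 (without 31, where 2 low animals weigh as much as 3 medium ones) to 0.22, IVL from -0.28 to 0.016 (without 41) and COL11A1 from -0.17 to 0.052. The 18S control, as the plain mean of 5 animals, ran from -0.18 (without 32) to 0.34. CXCL8 turned without animal 31 (0.018), 32 (0.056) or 42, and COL11A1 without 32 or 41 (0.041). When all probe sets of a gene were averaged, TEK (0.030) and PKM (0.052) turned. Of the list medians recomputed, 7 moved beyond the spread between animals and 871 did not.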
